A study of Mus musculus with 4 samples.

Results

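The 9 genes described here encode enzymes that make or break down retinoic acid and proteins that bind it: Rdh10, Dhrs3, Aldh1a1, Aldh1a2, Aldh1a3, Crabp1, Crabp2, Cyp26a1 and Cyp26b1. They were chosen by their role in the pathway, selected on fold changes of the same comparison that is described here, and all 9 symbols were found among the 23107 genes of the deposited tables. Bulk RNA was sequenced from tdTomato-positive cells sorted from the dental follicles of mouse mandibular molars at postnatal day 8, after tamoxifen at postnatal day 3. The control group, cHet (n = 2 libraries), had the genotype Ptch1(+/-), and the other group, cKO (n = 2 libraries), the genotype Ptch1(-/-). Tamoxifen, reporter, sorting and age were the same in both groups, so the controls had themselves lost a copy of Ptch1. The labels call the sorted cells PTHrP-positive dental follicle cells; the transgene that drives recombination, the sex of the mice and any pooling of animals are not given in the sources used here. The labels do not tell whether the libraries of a group are from different mice; the p-values therefore speak only of how far these libraries differ, and that difference could be technical.

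Retinoic acid is made from vitamin A (retinol) in successive oxidations and acts on nuclear receptors of the RAR and RXR families, which bind DNA as dimers and switch their target genes on when the ligand arrives. Cells set their own level of it: dehydrogenases make it, CYP26 enzymes clear it, and small cytoplasmic proteins carry it. In the developing head and teeth, retinoic acid is known to act on patterning, on mesenchymal growth and on mineralising cells, and both too much and too little of it disturb tooth and skull formation. Ptch1 encodes the receptor that restrains hedgehog signalling, so the comparison asks how these genes stand in follicle cells that have lost both copies of that restraint instead of a single copy.

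Values are scaled counts, meaning gene counts that the authors divided by a factor for each library, unless FPKM (fragments per kilobase of transcript, scaled to library size) is named. Fold changes are differences of mean log2(scaled count + 3), cKO less cHet, with the standard error (SE) that limma gave in a fit of 14297 genes, and ± is the standard deviation (SD). Libraries carry the names of the table columns, cHet_0, cHet_1, cKO_0 and cKO_1. Their scaled totals lay between 69361760 and 71228342. Library cHet_1 stood apart: it had 9850 genes with an FPKM of at least 1 against 11355 to 12360 in the others, and 34 genes at 0 that reached at least 100 in each other library. Ptch1, the targeted gene, was at 12867 and 5438 in cHet_0 and cHet_1 and at 22420 and 23341 in cKO_0 and cKO_1; it stood higher in both cKO libraries, but a value over the whole transcript does not show whether an exon was deleted and so does not check the labels. The 9 follicle markers checked (among them Pthlh, Postn, Lum and Col1a1) were above 0 in every library. They summed to 8.83% and 9.49% of the scaled total in cHet and to 6.47% and 6.12% in cKO, with 5 of 9 lower in both cKO libraries and 0 higher. Of all genes in the fit, 14.2% were lower in both cKO libraries and 18.0% higher. The sums rest mostly on Col1a1, which was lower in both cKO libraries, and on Col3a1, which overlapped between the groups. Pthlh overlapped too, at 9253 and 15879 for cHet versus 12267 and 8613 for cKO. So did Pth1r, at 12053 and 13416 against 13511 and 13297. Fewer cells of a type and less RNA per cell cannot be told apart in bulk samples such as these.

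The main pattern among the 9 genes was that the retinoic acid-making enzyme gene Aldh1a3 stood 2.46-fold higher in cKO on the log scale, while the breakdown enzyme gene Cyp26a1 stood 5.97-fold lower. In 4 genes (Aldh1a2, Aldh1a3, Crabp1 and Crabp2) both cKO libraries lay above both cHet libraries, and in 3 (Cyp26a1, Cyp26b1 and Rdh10) both lay below. Over all genes tested, 32.2% had groups that did not overlap, 18.0% higher and 14.2% lower. Because values of this same comparison chose the genes, these counts are a description and nothing is read from them. In FPKM, both cKO libraries lay above both cHet libraries for 4 genes (Aldh1a1, Aldh1a3, Crabp1 and Crabp2) and below for 2 (Cyp26a1 and Cyp26b1), the groups not overlapping, against 20.2% of all genes, 11.5% higher and 8.73% lower. The lowest value of any of the 9 genes was 39.8, so all 9 passed the filter on low values, which asked for 10 or more in 2 or more libraries, with the libraries of either group alone. None passed limma's Benjamini-Hochberg threshold of 0.05 over all genes: 0 of 9 were called higher and 0 lower, against a background of 0.0% in each direction, with 0.913 as the lowest adjusted p. An unadjusted limma p under 0.05 was reached by 2 genes higher (Aldh1a3 and Crabp1) and 1 lower (Cyp26a1), against 3.03% of all genes, 1.54% higher and 1.49% lower. With a library left out, the shares of all genes called higher and lower were 7.42% and 0.546% when cHet_0 was dropped, 0.0% each for cHet_1, 0.049% and 0.035% for cKO_0, and 0.0699% and 0.224% for cKO_1; the calls of the 9 genes in those fits, 3 higher without cHet_0 and 1 lower without cKO_1, are given with each gene. For a single gene, an exact permutation test of 2 libraries against 2 cannot give a two-sided p below 0.333.

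**Figure D1:**
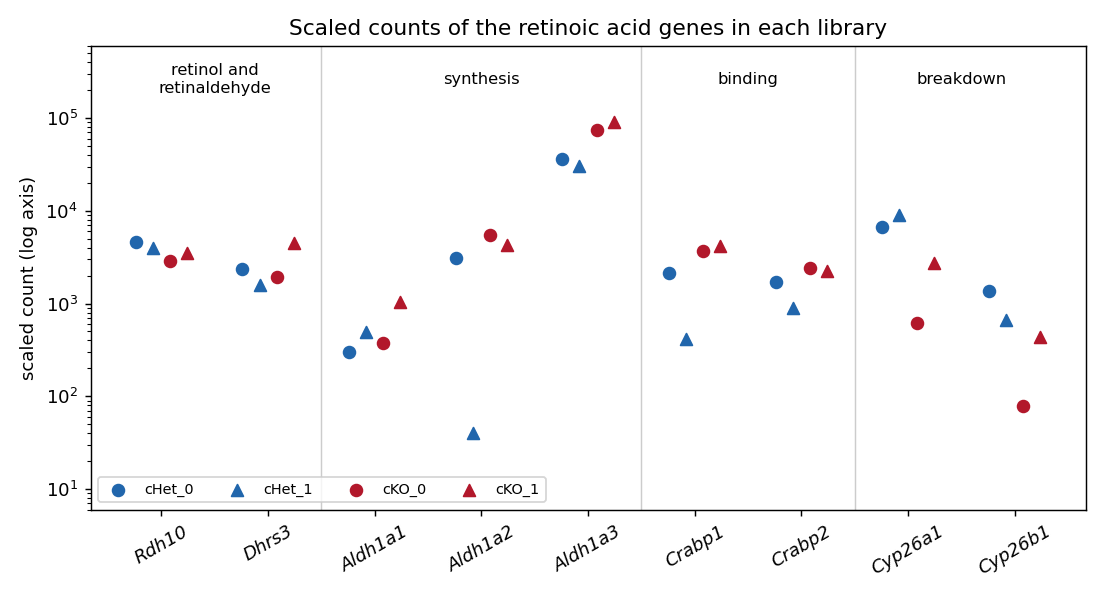
Scaled counts (log axis) of the 9 genes in each library, with cHet in blue and cKO in red and the genes ordered by role. Both red points lie above both blue points for Aldh1a2, Aldh1a3, Crabp1 and Crabp2 and below them for Cyp26a1, Cyp26b1 and Rdh10; the isolated low point is Aldh1a2 in cHet_1, at 39.8.

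Synthesis begins with the reversible step between retinol and retinaldehyde. Rdh10 (chromosome 1, 16105774 to 16133734, plus strand, mm10) encodes the main retinol dehydrogenase of embryonic tissue, which makes retinaldehyde. It was at 4570 and 3943 for cHet versus 2850 and 3531 for cKO. The groups were ordered but nearly touched, the lower cHet value being 1.12-fold above the higher cKO value, and the log2 fold change was -0.42 (SE 0.39). In FPKM the groups overlapped, at 31.6 and 10.3 for cHet versus 19.4 and 10.05 for cKO. Dhrs3 (chromosome 4, 144892827 to 144928209, plus strand) encodes the reductase that returns retinaldehyde to retinol and so limits synthesis. It was at 2369 and 1571 for cHet versus 1940 and 4482 for cKO. These groups overlapped, with cKO_1 alone standing high, and the log2 fold change of 0.61 (SE 0.59) was 0.0083 without cKO_1. The ratio of Rdh10 to Dhrs3 in FPKM, chosen after the values were seen, was 1.33 and 0.787 for cHet versus 1.02 and 0.325 for cKO, so it did not separate the groups either.

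The irreversible step, from retinaldehyde to retinoic acid, is catalysed by the retinaldehyde dehydrogenases of the Aldh1a family, and here Aldh1a3 (chromosome 7, 66390890 to 66427517, minus strand) was by far the most abundant of the 3 genes. Aldh1a3 was at 36442 and 30298 for cHet versus 73862 and 90830 for cKO, or 33370 ± 4344 and 82346 ± 11998 (SD, n = 2 libraries each). Libraries of a group lay close together, 1.20-fold apart within cHet and 1.23-fold within cKO, and the lower cKO value was 2.03-fold above the higher cHet value. The log2 fold change was 1.30 (SE 0.24; limma adjusted p = 0.913). It lay between 1.15 and 1.45 when any single library was left out. Without cHet_0 it passed the threshold over all genes (limma adjusted p = 0.0216).

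In FPKM, which compares genes per length, Aldh1a3 was at 156 and 73.5 for cHet versus 315 and 241 for cKO. It ranked 381 and 709 among all listed genes in the cHet libraries and 138 and 183 in the cKO libraries, the top rank of the 9 genes in each library. Of the summed FPKM of the 3 Aldh1a genes, Aldh1a3 held 87.3% and 97.6% for cHet versus 89.1% and 91.6% for cKO. The sum itself was 179 and 75.4 FPKM in cHet and 353 and 263 in cKO, so the total for retinaldehyde oxidation followed Aldh1a3 while its share overlapped between the groups.

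Aldh1a2 (chromosome 9, 71215789 to 71296243, plus strand), which encodes the dehydrogenase that supplies most retinoic acid to early embryonic mesoderm, was at 3116 and 39.8 for cHet versus 5465 and 4284 for cKO. The cHet libraries were 72.9-fold apart, much further than the 1.28-fold between the cKO libraries, so the log2 fold change of 3.73 (SE 1.70) rests on the near absence of this transcript from cHet_1. Without cHet_1 it was 0.63, and without cHet_0 it was 6.82 (limma adjusted p = 0.0105). In FPKM the groups overlapped, at 20.5 and 0.153 for cHet versus 35.8 and 18.1 for cKO. Aldh1a1 (chromosome 19, 20492715 to 20643465, plus strand) encodes a cytosolic aldehyde dehydrogenase that also oxidises retinaldehyde and marks many progenitor cells. It was at 297 and 498 for cHet versus 376 and 1039 for cKO. Those groups overlapped, the log2 fold change was 0.70 (SE 1.36), and it changed sign, to -0.033, without cKO_1. Aldh1a1 held at most 2.23% of the summed Aldh1a FPKM in any library. It overlaps C730002L08Rik, a transcript on the opposite strand that the tables also list, and without strand in the counting the reads of the pair could not be told apart.

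**Figure D2:**
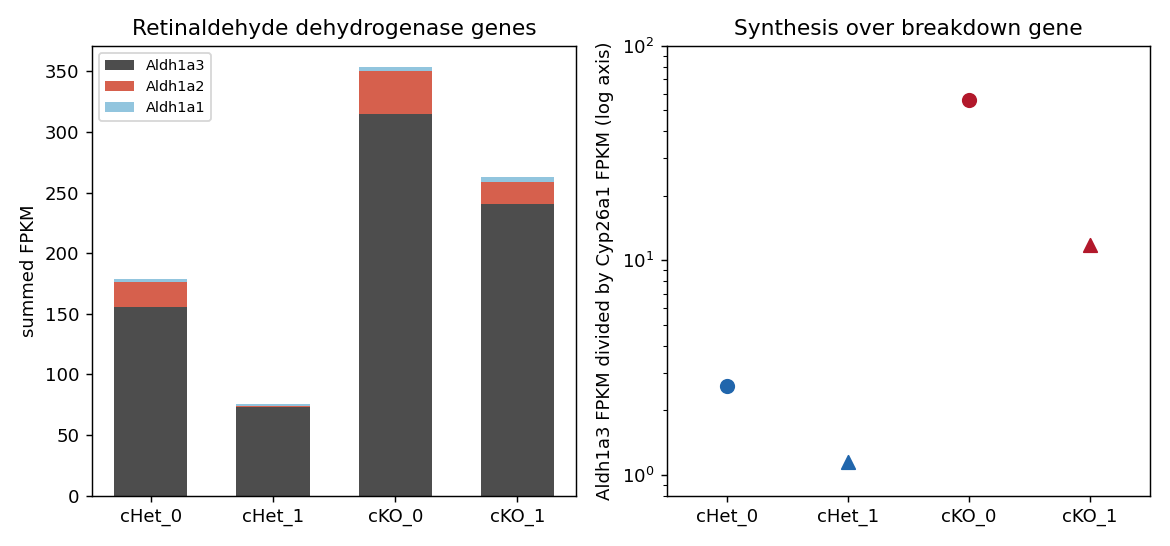
Left, FPKM of Aldh1a3, Aldh1a2 and Aldh1a1 stacked for each library: Aldh1a3 makes up 87.3% to 97.6% of every bar, and the bars of cKO_0 and cKO_1 (353 and 263) are taller than those of cHet_0 and cHet_1 (179 and 75.4). Right, the ratio of Aldh1a3 to Cyp26a1 in FPKM on a log axis, 2.60 and 1.15 for cHet versus 55.9 and 11.8 for cKO.

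Retinoic acid in the cytoplasm is carried by the cellular retinoic acid-binding proteins. Crabp1 (chromosome 9, 54764748 to 54773110, plus strand), which is associated with buffering of retinoic acid and its delivery to breakdown, was at 2142 and 413 for cHet versus 3721 and 4150 for cKO. Both cKO values were 1.74-fold or more above the higher cHet value, but cHet_0 lay 5.15-fold above cHet_1. The log2 fold change was 2.06 (SE 0.81; limma adjusted p = 0.913), and it was 0.87 without cHet_1 and 3.24 without cHet_0 (limma adjusted p = 0.0189). Crabp2 (chromosome 3, 87948666 to 87953376, plus strand), which hands retinoic acid to its nuclear receptor, was at 1707 and 888 for cHet versus 2408 and 2250 for cKO. The cKO libraries agreed within 1.07-fold, the cHet libraries were 1.92-fold apart, and the log2 fold change was 0.92 (SE 0.65; 0.45 without cHet_1). In FPKM, Crabp1 was at 50.4 and 10.8 for cHet versus 89.3 and 100.7 for cKO, and Crabp2 at 32.0 and 12.9 for cHet versus 45.0 and 32.3 for cKO. The ratio of Crabp1 to Crabp2 in FPKM, chosen after the values were seen, was 1.58 and 0.838 for cHet versus 1.98 and 3.11 for cKO. Both binding-protein genes had cHet_1 as their lowest library on either scale, and their fold changes were smallest when it was left out.

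Breakdown of retinoic acid falls to the CYP26 cytochromes P450. Cyp26a1 (chromosome 19, 37697798 to 37701536, plus strand), the enzyme that many cells induce when retinoic acid rises, was at 6695 and 8986 for cHet versus 616 and 2722 for cKO. The lower cHet value was 2.46-fold above the higher cKO value. The cHet libraries lay 1.34-fold apart and the cKO libraries 4.40-fold, with cKO_0 the lowest. The log2 fold change was -2.58 (SE 0.68; limma adjusted p = 0.913). It was -1.51 without cKO_0 and -3.65 without cKO_1, where it passed the threshold over all genes (limma adjusted p = 0.000121). Cyp26b1 (chromosome 6, 84571414 to 84593908, minus strand), the family member known for clearing retinoic acid in limb, gonad and skeletal tissue, was at 1362 and 659 for cHet versus 77.6 and 431 for cKO. Its log2 fold change of -2.35 had an SE of 1.55, its cKO libraries were 5.39-fold apart, and it was -1.13 without cKO_0. In FPKM, Cyp26a1 was at 60.0 and 64.2 for cHet versus 5.63 and 20.4 for cKO, and Cyp26b1 at 4.27 and 1.28 against 0.247 and 0.936. Cyp26a1 thus exceeded Cyp26b1 per length 14.1-fold and 50.3-fold in cHet and 22.8-fold and 21.8-fold in cKO.

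The synthesis gene Aldh1a3 and the breakdown gene Cyp26a1 lay apart in opposite directions, and their ratio in FPKM, chosen after the values were seen, was 2.60 and 1.15 in cHet_0 and cHet_1 and 55.9 and 11.8 in cKO_0 and cKO_1. The ratio differed 2.27-fold within cHet and 4.73-fold within cKO, and its lowest cKO value was 4.54-fold above its highest cHet value. Per length, Aldh1a3 was above Cyp26a1 in every library, and in cHet_1 the pair were nearly level.

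Cyp26a1 and the receptor gene Rarb are known direct targets of the retinoic acid receptors, which bind direct repeats of a 6-base site with a spacer of 5 bases. The stretch before the RefSeq start of each gene is shown so that these elements can be read beside the values of the genes. That start is at 37697808 for Cyp26a1, 10 bases into the GENCODE gene. For Rarb it is at 16575476, an internal start 243680 bases downstream of the 5′ end of the GENCODE gene at 16819156, so its stretch lies inside the gene as annotated there. Each line gives 140 bases, 5′ to 3′ on the strand of the gene, from RefSeq (GRCm38.p6), with the paired sites in capitals; Cyp26a1 is chr19:37697658-37697797 on the plus strand and Rarb is chr14:16575487-16575626 on the minus strand.
Cyp26a1: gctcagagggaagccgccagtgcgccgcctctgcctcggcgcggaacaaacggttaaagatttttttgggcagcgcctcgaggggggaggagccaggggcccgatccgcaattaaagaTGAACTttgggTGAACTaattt
Rarb: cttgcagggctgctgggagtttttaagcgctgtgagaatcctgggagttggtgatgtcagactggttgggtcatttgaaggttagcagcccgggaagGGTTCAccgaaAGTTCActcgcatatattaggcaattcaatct
In Cyp26a1 the element is AGTTCA repeated after a spacer of 5 bases, read on the opposite strand, 32 to 16 bases before the RefSeq start and 22 to 6 before the GENCODE start. In Rarb it is GGTTCA followed after 5 bases by AGTTCA, read on the strand of the gene, 53 to 37 bases before the RefSeq start. On both strands of 32851 RefSeq promoter windows (250 bases before to 50 after each start), the Cyp26a1 form was in 0.0244% and the Rarb form in 0.00609%; every match to either also contains the 6-base site AGTTCA, which was in 14.0% of windows. Another form, AGGTCA repeated after 5 bases, was in 0.00913% of windows, its site AGGTCA in 16.3%, and the Gli site GACCACCCA in 0.253%. Windows were found for 6 of the 9 genes, all but Aldh1a3, Crabp2 and Rdh10, and among those 6 only Cyp26a1 held any of these motifs. A match is a string of letters, and no match says only that these letters are not in that window. Rarb itself was at 4568 and 4333 for cHet versus 6116 and 4111 for cKO (log2 fold change 0.17, SE 0.37), with groups that overlapped. The direction of the small difference in Rarb turned, to -0.11, without cKO_0. The difference between the fold changes of Cyp26a1 and Rarb was not tested. Rarb overlaps Top2b on the opposite strand, with which it could share reads.

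**Figure D3:**
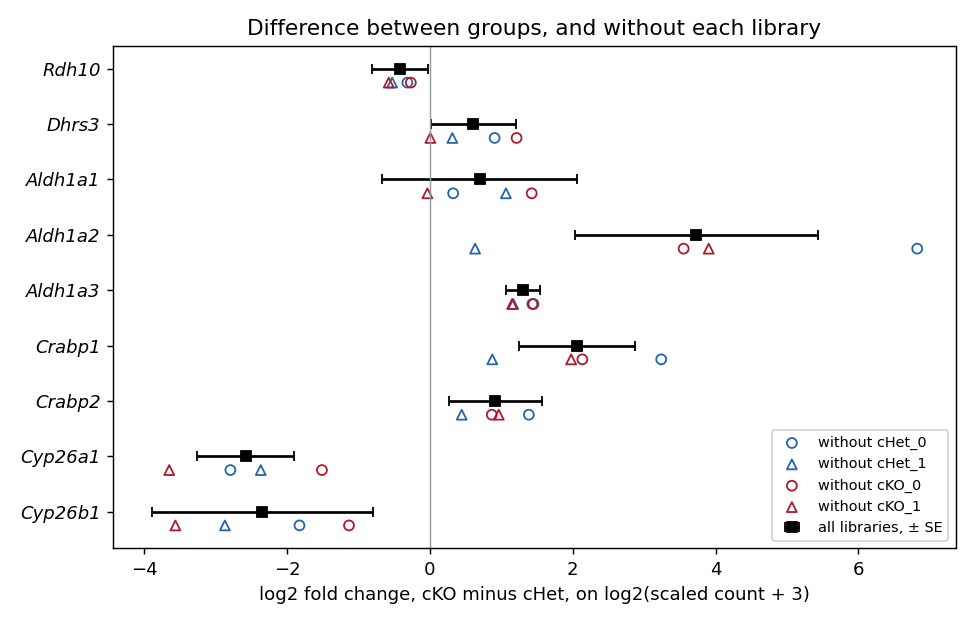
Log2 fold change (cKO minus cHet) of each gene with its limma SE (black squares and bars) and, below each, the value with a single library left out (open symbols). Aldh1a3 keeps to 1.15 to 1.45, whereas Aldh1a2 runs from 0.63 to 6.82 with the cHet library left out and Cyp26a1 from -3.65 to -1.51 with the cKO library left out.

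Set against the spread within groups, 3 of the 9 genes, Aldh1a3, Cyp26a1 and Rdh10, had a difference between groups larger than the difference between the libraries of either group, as did 16.3% of all genes tested; nothing is read from that count either. The within-group differences, on the same log2 scale and without sign, were 0.27 in cHet and 0.30 in cKO for Aldh1a3, 0.42 and 2.14 for Cyp26a1, and 0.21 and 0.31 for Rdh10. Over all genes tested the median of such differences was 0.87 in cHet and 0.58 in cKO. Aldh1a2, Crabp1 and Crabp2 exceeded their spread in cKO but not in cHet, at 6.19, 2.36 and 0.94 in cHet. Cyp26b1 did so in cHet but not in cKO, at 1.04 in cHet and 2.43 in cKO. The 9 genes had 0.70 as the median of their log2 fold changes, and all genes tested had 0.12. The median of the 9 was 0.0083 without cKO_1 and 1.21 without cKO_0.

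Some markers of other cells, and some of the follicle itself, were low in the same libraries as the breakdown genes. The dentin matrix gene Dspp of odontoblasts was at 27937 and 69633 for cHet versus 229 and 9251 for cKO, the same order of libraries as Cyp26a1. Phex, a peptidase gene of mineralising cells, was at 2763 and 3653 for cHet versus 95.9 and 339 for cKO. Both lay lower in both cKO libraries and lowest in cKO_0, as did Cyp26a1 and Cyp26b1. The same held for Bglap and Alpl of the osteoblast and cementoblast list and for Epcam of the epithelial list. It held as well for Postn and Dcn of the follicle list. Postn was at 90224 and 149828 for cHet versus 55112 and 58964 for cKO, and Dcn at 54343 and 46719 against 19594 and 23248. The follicle markers Pdgfra, Lum and Col1a1 were also lower in both cKO libraries, but lowest in cKO_1. The 4 odontoblast markers together made up 0.0801% and 0.111% of the scaled total in cHet and 0.00814% and 0.0251% in cKO, with 2 of 4 lower in both cKO libraries, 0 higher and none at 0. Of all genes tested, 14.2% were lower in both cKO libraries and 18.0% higher. The 5 osteoblast and cementoblast markers made up 0.345% and 0.463% for cHet versus 0.359% and 0.360% for cKO, with 2 of 5 lower in both cKO libraries (Bglap and Alpl) and none at 0. Dental epithelium markers, all 12 above 0 in every library, made up 0.891% and 2.14% for cHet versus 1.41% and 3.98% for cKO. Of those 12, only Epcam, an adhesion protein gene of epithelial cells, was lower in both cKO libraries, at 4828 and 2448 against 621 and 1002, and 0 were higher. The epithelial sum thus overlapped between the groups. Of its 12 genes, 8, among them Krt5, Krt14 and Cdh1, had cKO_0 as their lowest library, as the breakdown genes did. Another 3 (Ambn, Amelx and Enam) were lowest in cHet_0, and 1 (Amtn) was lowest in cHet_1. The part of these cells in the values of Cyp26a1 and Cyp26b1 was not tested.

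**Figure D4:**
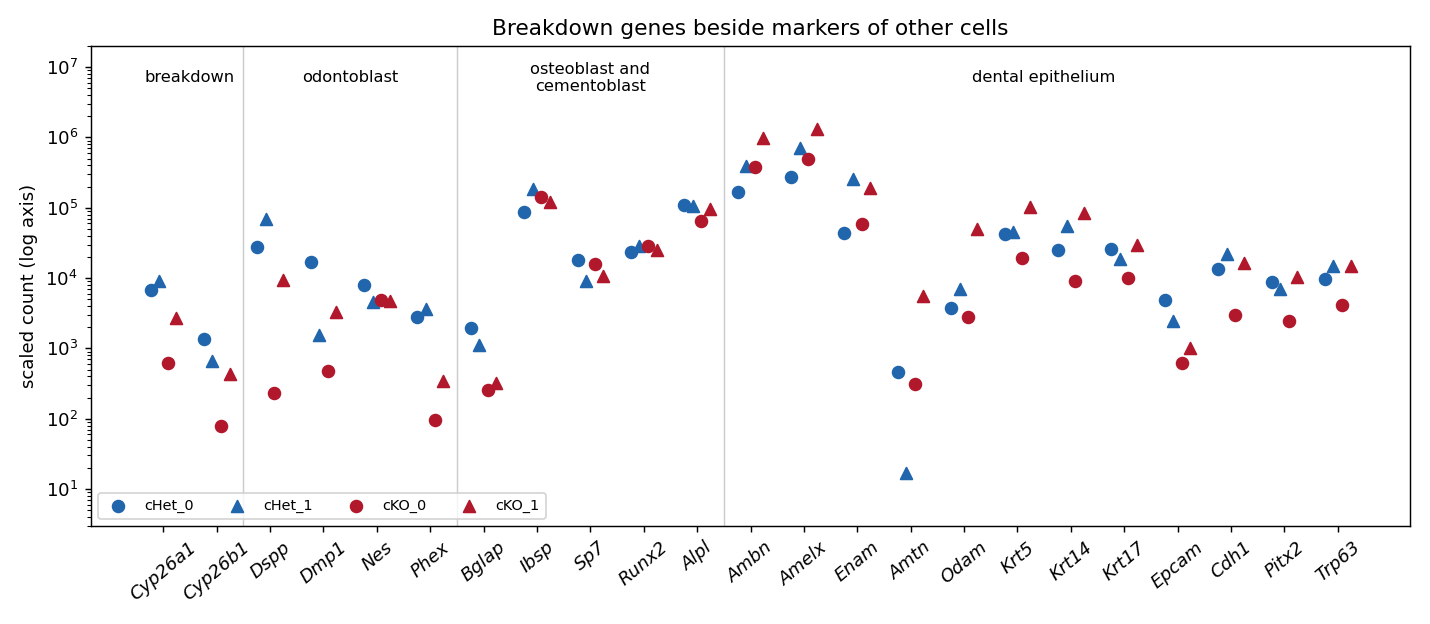
Scaled counts (log axis) of Cyp26a1 and Cyp26b1 beside the markers of odontoblasts, of osteoblasts and cementoblasts, and of dental epithelium, with cHet in blue and cKO in red. Cyp26a1, Cyp26b1, Dspp, Phex, Bglap, Alpl and Epcam have both red points below both blue points and the red circle, cKO_0, lowest. Between the colours, 11 of the 12 epithelial markers overlap.

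Beside the genes that stood higher in cKO, 4 further marker lists were checked, and as a summed level only that of Schwann cells separated the groups. The sums of endothelial, pericyte and leukocyte markers overlapped. Endothelial markers made up 0.00885% and 0.0150% of the scaled total in cHet and 0.0117% and 0.0230% in cKO. Of these, 4 of 10 were higher in both cKO libraries and 0 lower, beside 18.0% and 14.2% of all genes tested. Pecam1 was at 0 and 5.23 for cHet versus 300 and 1278 for cKO. Other endothelial markers were abundant in cHet too. Kdr overlapped between the groups, at 1900 and 4054 against 1944 and 3145, and Eng was at 3692 and 4283 against 4428 and 5405. Schwann cell markers made up 0.00434% and 0.000964% for cHet versus 0.00979% and 0.0321% for cKO, with 4 of 7 higher and 0 lower; Cdh19 was at 0 in every library. The sums of both lists were highest in cKO_1, that of Schwann cells by far. Pericyte and smooth muscle markers made up 0.103% to 0.112% in cHet and 0.110% to 0.132% in cKO, with 1 of 8 higher and 1 lower. The higher gene was Des, which did not pass the filter on low values. Des was at 0 in both cHet libraries and at 127 and 1.13 in cKO. The pericyte and smooth muscle sum mostly follows Acta2, at 52635 and 49616 for cHet versus 52358 and 61932.5 for cKO. Leukocyte markers, 9 of which were in the tables, made up 0.00209% and 0.0121% for cHet versus 0.00168% and 0.0168% for cKO, with 1 higher (Ptprc, at 0 in cHet_1) and 0 lower. The part of these cells in the values of Aldh1a2, Aldh1a3, Crabp1 and Crabp2 was not tested.

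The wider retinoid pathway was followed in 67 further genes in 6 groups, all matched in the tables, of which 42 passed the filter on low values and 14 were at 0 in every library. Among the 42, limma called 0 higher and 0 lower, and 1 had an unadjusted p under 0.05 (Rxra). Both cKO libraries lay above both cHet libraries for 13 of the 42 genes and below them for 3 (Nr2f1, Rdh5 and Nrip1), or 38.1% together. Of all genes tested, 32.2% had groups that did not overlap, 18.0% higher and 14.2% lower. With median-of-ratios scaling the counts were 11 and 5. The list was chosen with earlier results of these data known, so nothing is read from these counts. The 42 genes had a median of 0.17 and all genes tested one of 0.12, both log2 fold changes.

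Receptors were all above 0 in every library. Rxra, the partner subunit that most retinoic acid receptors pair with, was at 8905 and 5771 for cHet versus 11658 and 12782 for cKO (log2 fold change 0.77, SE 0.31; limma adjusted p = 0.913). Rara, a ligand-binding subunit, was at 6029 and 6320 against 9258 and 7958 (0.48, SE 0.29). It and Rxra were the 2 of 6 receptor genes higher in both cKO libraries, and 0 were lower. Of all genes tested, 18.0% were higher and 14.2% lower. Rarg was at 10447 and 6994 against 9648 and 6864 (-0.07, SE 0.33) and Rxrb at 4360 and 5409 against 4172 and 4622 (-0.15, SE 0.35), with groups that overlapped. Rxrg was at 348 and 7.33 against 1184 and 43.1, the libraries within each group differing more than the groups.

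Among the genes of uptake and storage, Dgat1, an acyltransferase that can esterify retinol, was at 2197 and 1736 for cHet versus 1257 and 2840 for cKO, and Stra6, the membrane receptor for retinol carried in blood, at 813 and 1258 against 1410 and 403; both overlapped. Among the other oxidoreductases, 6 of 10 tested stood higher in both cKO libraries and 1 (Rdh5) lower, beside 18.0% and 14.2% of all genes; in FPKM 3 were higher and 1 lower. The most abundant of them per length were Adh5 at 5461 and 8828 against 6094 and 5797, Dhrs7 at 3130 and 1623 against 2171 and 2974, and Dhrs4 at 1347 and 877 against 2475 and 3009. Only Dhrs4, a reductase of carbonyl compounds, had groups that did not overlap among those 3 (log2 fold change 1.33, SE 0.62; limma adjusted p = 0.913). The remaining CYP26 gene, Cyp26c1, was at 121 in cHet_0 and at 0 in the other 3 libraries and did not pass the filter. Fabp5 and Ppard, a lipid carrier and the nuclear receptor through which it can pass retinoic acid, overlapped between the groups, at 3379 and 2321 against 2897 and 3294 and at 304 and 402 against 387 and 538.

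Among 8 coregulators of the receptors, Nrip1, a corepressor that retinoic acid induces in many cells, was the only gene lower in both cKO libraries, at 7956 and 13769 for cHet versus 7450 and 7575 for cKO (log2 fold change -0.48, SE 0.33). Its groups nearly touched, the lower cHet value being 1.05-fold above the higher cKO value, and its cHet libraries differed by 0.79 in log2. Ncoa3 was the only gene higher, at 3145 and 3549 against 3896 and 4125. Of all genes tested, 14.2% were lower in both cKO libraries and 18.0% higher. The corepressor gene Ncor1 (16353 and 19822 against 20629 and 16625) overlapped between the groups. Of 18 genes known to be induced by retinoic acid in other tissues, 10 were tested, with a median log2 fold change of 0.11, close to that of all genes. Tgm2, a transglutaminase gene, was at 6883 and 7398 for cHet versus 9091 and 13285 for cKO (0.62, SE 0.30). Bhlhe40, a transcriptional repressor gene, was at 6092 and 4865 against 6238 and 13040 (0.73, SE 0.40), its cKO_0 value nearly level with cHet_0. Rarres2, which encodes chemerin, was at 1543 and 1213 against 1250 and 1232, with groups that overlapped. The single gene of this group lower in both cKO libraries was Nr2f1, an orphan nuclear receptor gene named after its values were seen, at 502 and 1111 for cHet versus 64.6 and 12.5 for cKO (-4.53, SE 2.07).

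**Figure D5:**
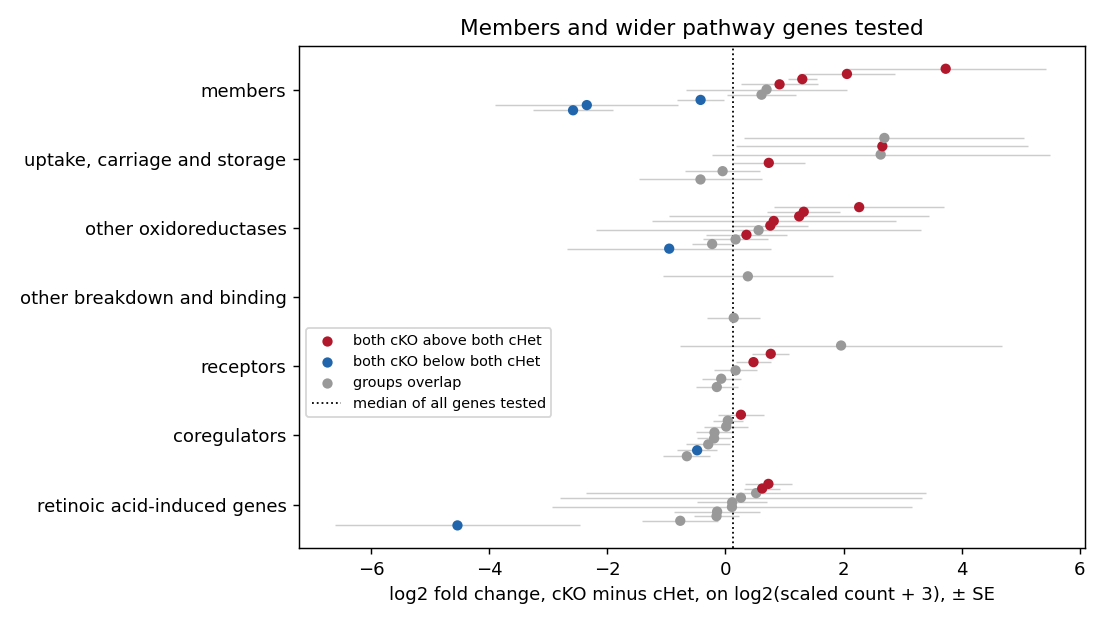
Log2 fold change (cKO minus cHet) with limma SE of the 9 genes and of the 42 tested genes of the wider pathway, by group; colour shows whether both cKO libraries lie above (red) or below (blue) both cHet libraries, and the dotted line is the median of all genes tested, 0.12. Of the wider pathway, 27 of 42 genes lie within 1 SE of that line.

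The genes whose profile over the 4 libraries was nearest to that of Aldh1a3 were Mapk13, Lactb and Oasl2, by Euclidean distance of log2 values centred on each gene's mean (0.144, 0.149 and 0.149), among 8962 other genes whose scaled counts averaged 1000 or more. There were 63 genes within a distance of 0.5. Crabp2 ranked 204 by this distance and Dhrs3 ranked 1012, while Crabp1 ranked 5259 and Aldh1a2 8835, the last at 4.86.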

How the data were processed

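RNA of sorted cells was isolated with a PicoPure kit, amplified with SMART-Seq v4 and made into libraries with Nextera XT, per the labels' protocols. The submitters' processing notes name the build mm10 and TopHat2 (2.0.13), Bowtie2 (2.2.1), Cufflinks, Cuffdiff, HTSeq, DESeq2 and FastQC, without roles; use of strand in counting is not stated there. The deposited scaled counts (a signal) hold what the authors obtained by dividing counts per gene by a library factor. They were analysed as deposited, without turning them back into whole reads, and no count test was run. The deposited FPKM values, made by the authors per transcript length and library size, served for levels between genes and as an alternative. In 4 other tables, 16 columns match no label and were not used. Column numbers start at 0 and title numbers at 1, so a column was tied to its group alone.

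Genes at 10 or more in 2 or more libraries (14297) entered limma (3.58.1, under R 4.3.3) as log2(scaled count + 3). Variances were trended and group was the only term. The fit was tried on simulated data with a quieter spread than that of the real libraries, so the trial does not show how it performs here. Tests were two-sided, with Benjamini-Hochberg adjustment over all genes and 0.05 as threshold. The limma SE draws each gene's spread toward that of genes of like abundance. Reads of amplified cDNA do not count molecules, and precision is set by 2 libraries a group. The 9 genes, the pathway and marker lists and the settings were chosen with earlier results of these data known. Named genes were the 9, Ptch1, all 6 receptors, the 3 members with the highest mean FPKM of each other pathway group (some of these are not reported here), and the 3 nearest profiles to Aldh1a3; any other is said to be chosen after its values were seen or completes a count. Alternatives were other pseudocounts, scalings, filters, FPKM, library weights, leaving out each library and a block on the column number. Protein sequences were not used here. Coordinates are from GENCODE vM21, 1-based.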

Additional observations from a re-analysis of the deposited data

How the results depend on the processing

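Across 15 alternatives, 128 of 133 fold changes of the 9 genes kept their direction and their side of the threshold; 4 passed it with a library left out (given with each gene above), and that of Aldh1a1 ranged from -0.033 to 1.43 when each library was left out. On scaled counts, another filter, library weights or the block left each of these fold changes as it was. Those settings are counted in the 133 but say nothing of how stable a direction is. The members lower in both cKO libraries numbered 2 with FPKM. With FPKM and the same genes, limma called 1 gene higher and 1 lower, against 0 and 0; leaving out each library gave 0 to 1061 higher and 0 to 78 lower. Of the wider pathway, 8 genes were higher in both cKO libraries with FPKM and 17 to 23 with a library left out (13 with all), and 5 were lower with median-of-ratios scaling, 1 at a mean of at least 1000 and 6 to 11 with a library left out (3 with all). That scaling moved the median of all genes from 0.12 to 0.02. Directions near 0 turned: Dgat1 was at 0.0073 with FPKM and a pseudocount of 1 and 0.0041 with 0.1, and Ncor1 at -0.064 with median-of-ratios and -0.059 with TMM scaling. With each library left out, Stra6 ranged from -1.32 to 0.48, Dgat1 from -0.63 to 0.54, Dhrs7 from -0.30 to 0.65, Adh5 from -0.57 to 0.12, Fabp5 from -0.13 to 0.41, Rarb from -0.11 to 0.46, Rarg from -0.36 to 0.22, Rxrb from -0.30 to 0.010, Rxrg from -0.59 to 4.50, Ncor1 from -0.11 to 0.20 and Rarres2 from -0.31 to 0.033. The cause was not tested. With a library left out, the lone library of its group is assumed to vary like the others. The columns share the numbers 0 and 1, which could not be tied to the numbers in the titles. A replicate block on these numbers, added after seeing the data, called 0 genes higher and 0 lower and left every fold change as it was; that of Cyp26a1 was -2.58 with an SE of 0.55. Deviations of libraries with the same number had a correlation of 0.049 across genes, and with 2 pairs this does not show that they are paired.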

Other observations

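The profile nearest to that of Cyp26a1 over the 4 libraries, looked up after its values were seen, was that of Shh, which encodes a hedgehog ligand made by dental epithelium. Shh was at 6137 and 6738 for cHet versus 650 and 2875 for cKO, a distance of 0.404 from Cyp26a1 and the only gene within 0.5 among 8962. The chromatin organiser gene Satb1 came next but one, at 19297 and 23069 for cHet versus 2375 and 11351 for cKO (distance 0.575). With 4 libraries such likeness is a description.

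The deposited scales differed by library. The FPKM that a gene received per scaled count, relative to cHet_0, had a median of 0.566 in cHet_1, 0.996 in cKO_0 and 0.609 in cKO_1 over 9933 genes; in cHet_1 the 10th and 90th percentiles were 0.278 and 1.10. Among the retinoic acid genes it was lowest for Rdh10, at 0.378 in cHet_1 and 0.412 in cKO_1, and highest for Crabp1, at 1.11 and 1.03. Rdh10 and Aldh1a2 separated the groups in scaled counts and not in FPKM. Aldh1a1 separated them in FPKM (2.2 and 1.7 for cHet versus 2.7 and 4.0 for cKO) and not in scaled counts. For Aldh1a2 the FPKM per scaled count lay near the median of all genes, at 0.586 in cHet_1 and 0.644 in cKO_1. The cause was not tested.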
